A study of Mus musculus with 4 samples.

Results

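CTCF summits found in the Inv library alone were 4023 of the 56237 summits that this library had on autosomes other than chromosome 11. A summit is the position of the highest signal within a peak. It was counted here when no summit of the other 3 libraries lay within 250 bp, so the members were selected on summit positions in all 4 lists, and their absence elsewhere is the choice and not a result. The libraries are CTCF CUT&RUN profiles of mouse embryonic stem cells (mESC), 1 library per genotype, and the 4 peak lists held 334066 summits in all. All 4 lines carry a HoxB deletion (Del) on one chromosome 11. Their other chromosome 11 has the deletion Del(i9-13) together with an inserted array of CTCF sites, Ins(CBS5-10). In the Inv line the array was also inverted, Inv(CBS5-10). The lines set against it carried the array without inversion (the Ins library), the array without CBS8-10 (the Del8-10 library), and the inverted array without CBS7-10 (the Inv:Del7-10 library). The edits all lie on chromosome 11, and the labels do not say whether a line is a clone. A CTCF peak does not measure expression, so the identity of the cells was not checked against marker genes.

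CTCF is a zinc-finger protein that binds a long, partly conserved DNA motif and halts the cohesin ring as it extrudes chromatin loops, so that convergent pairs of sites mark loop ends and domain borders. CUT&RUN cuts DNA beside the bound protein with a nuclease tethered to an antibody. The nuclease also cuts open chromatin at a low rate, and active promoters rich in G and C are among the most open parts of the genome. Of the deposited values, the −log10 q of a peak measures how far its fragment pileup exceeds the local background of the same library, and the fold is the ratio of the pileup to that background, each with 1 added.

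The 5 strongest Inv-only summits that lay inside a RefSeq promoter window, and 2 more in windows that held the CTCF core motif, are shown first because the promoters are the only places where the sequence under these summits could be read. A promoter window runs from 250 bases before to 50 after the start of a RefSeq transcript (GRCm38.p6, the assembly behind mm10), is 300 bases long and is printed 5′ to 3′ on the strand of the gene. In the first 5 windows capitals mark up to 21 bases centred on the summit. These windows are Dpf1 (chr7:29303755-29304054, plus strand), Ptpn18 (chr1:34459496-34459795, plus strand), Gm4631 (chr2:175338267-175338566, minus strand), C1ql4 (chr15:99087679-99087978, minus strand) and Proser1 (chr3:53463545-53463844, plus strand).
Dpf1: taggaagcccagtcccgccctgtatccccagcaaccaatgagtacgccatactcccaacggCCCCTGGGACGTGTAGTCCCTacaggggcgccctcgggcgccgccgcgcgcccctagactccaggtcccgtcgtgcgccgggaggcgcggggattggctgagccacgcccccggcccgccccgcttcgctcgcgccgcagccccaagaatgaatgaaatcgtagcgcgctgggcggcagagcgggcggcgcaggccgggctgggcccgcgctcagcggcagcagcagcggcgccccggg
Ptpn18: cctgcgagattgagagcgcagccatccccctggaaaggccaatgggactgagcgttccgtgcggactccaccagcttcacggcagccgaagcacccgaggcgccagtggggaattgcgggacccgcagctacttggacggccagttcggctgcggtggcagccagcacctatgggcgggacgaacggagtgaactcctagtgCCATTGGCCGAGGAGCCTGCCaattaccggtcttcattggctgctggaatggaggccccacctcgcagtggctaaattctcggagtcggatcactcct
Gm4631: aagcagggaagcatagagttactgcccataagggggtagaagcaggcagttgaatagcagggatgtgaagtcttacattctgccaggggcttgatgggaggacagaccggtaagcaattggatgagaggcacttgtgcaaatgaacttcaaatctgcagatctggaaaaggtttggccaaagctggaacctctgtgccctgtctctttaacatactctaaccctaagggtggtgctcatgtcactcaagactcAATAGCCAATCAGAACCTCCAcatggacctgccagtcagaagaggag
C1ql4: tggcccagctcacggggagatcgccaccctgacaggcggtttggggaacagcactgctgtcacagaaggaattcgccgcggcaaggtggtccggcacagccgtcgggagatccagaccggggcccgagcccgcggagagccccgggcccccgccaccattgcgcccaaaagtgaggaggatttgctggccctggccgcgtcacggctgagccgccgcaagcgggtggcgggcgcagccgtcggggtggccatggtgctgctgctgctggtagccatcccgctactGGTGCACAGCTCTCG
Proser1: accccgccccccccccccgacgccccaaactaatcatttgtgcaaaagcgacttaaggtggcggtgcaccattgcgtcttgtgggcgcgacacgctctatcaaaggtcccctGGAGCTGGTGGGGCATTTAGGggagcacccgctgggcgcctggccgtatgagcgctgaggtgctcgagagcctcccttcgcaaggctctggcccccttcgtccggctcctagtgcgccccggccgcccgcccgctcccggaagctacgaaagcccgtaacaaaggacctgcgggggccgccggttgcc
None of these 5 windows held the CTCF core motif on either strand. The motif searched is CC, 3 bases of any kind, AGG, 1 base of any kind and GGC, a fixed pattern taken from the CTCF motif. Sites that differ from it at any of these letters were not counted. In the next windows capitals mark that motif. They are Gm46560 (chr16:31509074-31509373, plus strand), a lncRNA gene, and Sin3b (chr8:72723020-72723319, plus strand), which encodes a scaffold of a histone deacetylase corepressor. Both were chosen after their values were seen.
Gm46560: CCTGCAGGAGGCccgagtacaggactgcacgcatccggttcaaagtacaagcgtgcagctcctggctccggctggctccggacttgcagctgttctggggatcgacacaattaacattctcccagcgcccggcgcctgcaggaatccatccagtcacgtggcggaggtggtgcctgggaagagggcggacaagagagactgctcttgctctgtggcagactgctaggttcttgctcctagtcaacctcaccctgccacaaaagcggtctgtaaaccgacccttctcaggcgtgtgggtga
Sin3b: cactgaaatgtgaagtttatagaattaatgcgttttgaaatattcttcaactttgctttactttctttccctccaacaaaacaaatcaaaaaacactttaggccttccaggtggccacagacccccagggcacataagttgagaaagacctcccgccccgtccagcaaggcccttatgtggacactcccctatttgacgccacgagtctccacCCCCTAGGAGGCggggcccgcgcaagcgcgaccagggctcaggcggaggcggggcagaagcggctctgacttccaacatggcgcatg
In the Sin3b window the centre of the motif lay 48.5 bases from the summit, and in the Gm46560 window 93.5 bases.

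The 4023 summits made up 7.15% of the Inv summits compared (95% Wilson interval 6.94 to 7.37). By the same rule the Ins library had 11882 summits of its own (14.7%), the Del8-10 library 7098 (11%) and the Inv:Del7-10 library 15334 (17.9%). The Inv list was thus the one with the smallest share of unmatched summits, and also the shortest of the lists, with 66365 peaks against 93969, 74555 and 99177. Of its summits, 72.6% (40838) were found in all 3 other lists. The number depends on one library most of all: with the Inv:Del7-10 list left out, 7614 Inv summits had no match in the remaining lists. With 1 library per genotype no test between lines is possible, and intervals cover counting error only.

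The Inv-only summits were weak within their own list. Their median −log10 q was 4.90, at a within-list percentile of 14.5, against 18.7 and a percentile of 63.1 for the Inv summits found in all 3 other lists. Of the Inv-only summits, 2946 (73.2%) stood below the 25th percentile and 46 (1.14%) above the median of the list. Their median fold was 5.04, against 10.9 for the summits found everywhere. Strength is bound up with the rule, since weak peaks are the ones that other lists miss, so these values describe the set and test nothing.

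The signal behind each call was recovered as a number of overlapping fragments. At the Inv-only summits the median pileup was 6 fragments, with quartiles of 4 and 7, and 2843 of them (70.7%) rested on 6 or fewer. A pileup of at least 20 was reached by 43. Among 4084 of the summits found in all other lists, 1 taken from every 10, the median was 21 and 9.21% rested on 6 or fewer. The values therefore come in steps. A pileup of 4 over the commonest background gave a −log10 q of 3.48 at 452 summits, a pileup of 6 gave 6.39 at 442, and a pileup of 5 gave 4.90 at 287. The commonest background, 0.19 fragments per position, stood under 1343 of the Inv-only summits.

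The share of Inv summits that were Inv-only fell with strength. It was 36.7% (132 of 360) at a −log10 q under 2, 31.2% (405 of 1298) from 2 to 3, 23.7% (1811 of 7627) from 3 to 5, 10.9% (1563 of 14327) from 5 to 10, and 0.343% (112 of 32625) at 10 or more. The 112 strong summits were 2.78% of the set. In the same bands the unmatched shares of the Ins and Inv:Del7-10 libraries were higher than those of the Inv library, at 2.46% and 5.22% for a −log10 q of 10 or more. In the Del8-10 library the share was higher than in the Inv library in the 3 bands under 5, but 9.53% from 5 to 10 and 0.254% at 10 or more. A −log10 q depends on the depth of its library, so equal bands are not equal signal.

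**Figure D1:**
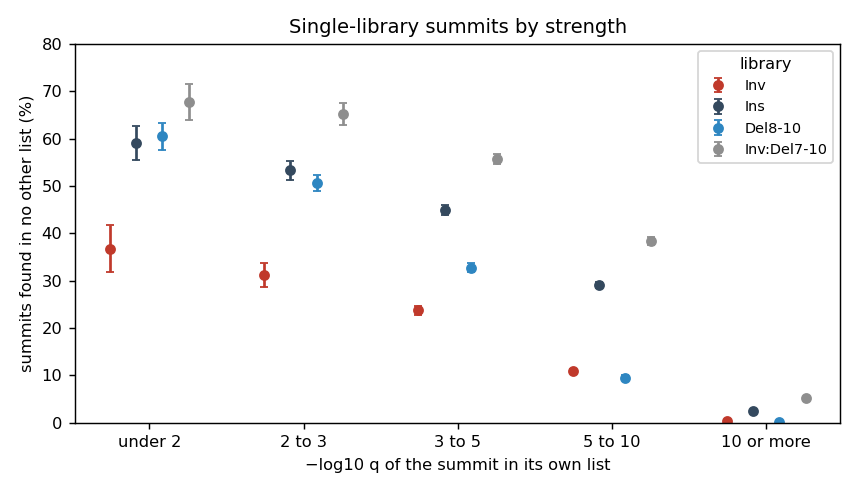
Share of summits found in no other list (y axis, percent, with 95% Wilson intervals) by the −log10 q of the summit in its own list (x axis), for the Inv library and the 3 others. In the Inv library it ran from 36.7% at a −log10 q under 2 to 0.343% at 10 or more.

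The peaks of these summits were narrow. The median width was 216 bp (quartiles 200 and 249), against 303 bp (257 and 430) for the Inv summits found in all other lists. The shortest width in the set was 200 bp, and 1599 of the Inv-only summits (39.7%) sat in intervals of exactly that length, against 4.501% of those found everywhere. Intervals that held a single summit had a median width of 212 bp, against 295 bp. Within bands of −log10 q the difference was smaller: 200 against 214 bp from 3 to 5, 233 against 248 bp from 5 to 10, and 276 against 320 bp at 10 or more.

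**Figure D2:**
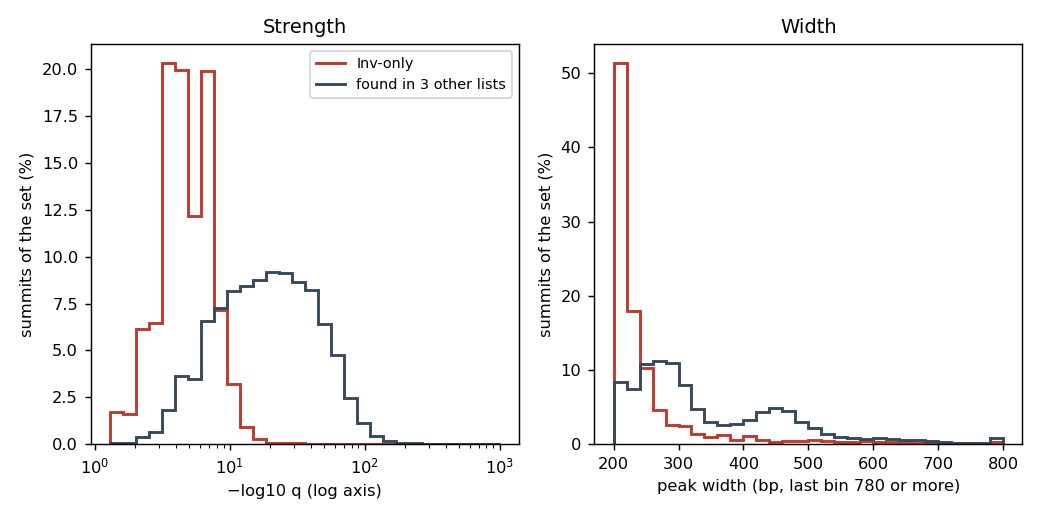
Distribution of −log10 q (left, log axis) and of peak width in bp (right) as a percent of the Inv-only summits and of the Inv summits found in all 3 other lists. The Inv-only summits have medians of 4.90 and 216 bp, against 18.7 and 303 bp, and their −log10 q comes in steps set by small whole pileups.

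Most Inv-only summits lay well away from any CTCF summit of the other lines, and a minority beside one. The nearest summit of another list was at a median of 4594 bp, was within 500 bp for 640 (15.9%) and was over 100 kb away for 74 (1.84%). The interval of 427 (10.6%) overlapped a peak interval of another list, so that only the summits were apart. In the Inv list itself 530 (13.2%) lay within 1 kb of a summit that was found elsewhere, and 167 shared their interval with one. These neighbours of common peaks are a second kind of member, and leaving them out took the set to 3493.

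At the 250 bp limit the values on the 2 sides were near each other, and their medians were somewhat lower on the Inv-only side. The 3 Inv-only summits closest to it lay at 251 bp from another list's summit, near Sgk1 (chromosome 10), in Robo4 (chromosome 9) and in the lncRNA gene Gm13986 (chromosome 2), with −log10 q of 11.4, 7.90 and 5.52. The 3 closest on the other side lay at 250 bp, near the lncRNA gene Gm28166 (chromosome 9), in Zc2hc1a (chromosome 3) and in Slc25a30 (chromosome 14), with 11.5, 5.81 and 5.63. The peaks of these 6 summits were 503 to 924 bp wide. The 276 Inv-only summits at up to 300 bp had a median width of 424.5 bp, and the 453 found summits over 200 bp but within 250 bp had 471 bp. The median −log10 q of these Inv-only summits was 4.81, against 5.46 for the found ones, and the median fold 4.86 against 5.30.

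The place of the summits relative to genes was not used to choose them. Of the 3888 Inv-only summits on chromosomes with promoter annotation, which leaves out chromosome 18, 438 lay within 1 kb of a gene start (11.3%, interval 10.3 to 12.3). The share was 12.1% (11.2 to 13.0) for Inv summits found in 1 other list, 17.1% (16.2 to 18.1) for those found in 2 and 9.48% (9.20 to 9.77) for those found in all 3. The Inv-only share was therefore slightly above that of the common summits and clearly below that of the summits found in 2 lists. Among the summits particular to each other list by the same rule, it was 12.5% in the Ins library, 5.28% in the Del8-10 library and 7.03% in the Inv:Del7-10 library.

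Gene bodies held 53.7% of the Inv-only summits (2162, interval 52.2 to 55.3), against 56.1% of those found in all 3 other lists. Exons and introns could not be told apart with the annotation used. A further 22.1% (891) lay outside genes but within 10 kb of one, against 26.2%, and 24.1% (970) lay over 10 kb from any gene, against 17.7%. More than 100 kb from any gene lay 4.15% (167) of the Inv-only summits, against 1.20%. The Del8-10 library's own summits had 24.7% over 10 kb from any gene and 3.94% over 100 kb, close to the Inv-only values, whereas the Ins library's own summits had 17.4% and 1.67%.

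Within bands of −log10 q these differences in place varied, and for gene starts they changed direction. Under 2, 11.6% of the Inv-only summits (7.02 to 18.5) and 17.9% of the common ones lay within 1 kb of a gene start, and from 2 to 3 it was 11.8% (8.96 to 15.4) and 16.5%. From 3 to 5, 12.5% of the Inv-only summits (11.1 to 14.2) and 12.2% of the common ones lay within 1 kb of a gene start, and from 5 to 10 it was 9.42% (8.05 to 10.99) and 11.4%. At 10 or more the Inv-only share was the higher one, 14.4% (8.94 to 22.4) against 8.68%. For the share over 10 kb from any gene, the values were 23.2% against 18.5% from 3 to 5, 25.6% against 17.7% from 5 to 10, and 33.0% against 17.7% at 10 or more. Strong Inv-only summits were thus the ones least often in gene bodies, at 40.2% of 112.

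**Figure D3:**
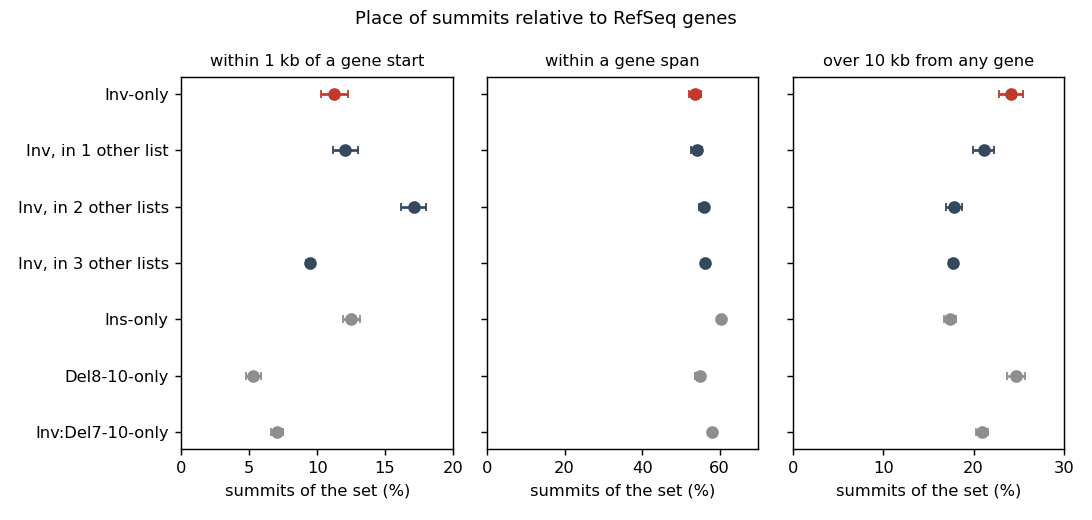
Share of summits (x axes, percent, with 95% Wilson intervals) within 1 kb of a gene start, within a gene span and over 10 kb from any gene, for Inv-only summits, Inv summits found in 1, 2 or 3 other lists, and the summits particular to each other list. The Inv-only summits have 24.1% over 10 kb from any gene, against 17.7% of the Inv summits found in 3 other lists.

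Promoter sequences gave a count of the CTCF core motif, which is not a measure of CTCF binding but does not come from the peak lists. Inv-only summits fell in 245 promoter windows (0.842% of 29107), 214 of them of protein-coding genes and 31 of lncRNA genes. The core motif, searched on both strands, was present in 11 of these (4.49%, interval 2.53 to 7.86). It was present in 3.83% of windows with an Inv summit found in 1 other list, 6.35% for 2 lists and 15.1% (365 of 2417, interval 13.7 to 16.6) for all 3. In all windows of these chromosomes the share was 3.41%, which lies inside the interval for the Inv-only windows. This depended on the motif: the shorter AGGNGGC was in 40.8% of the Inv-only windows, in 49.9% of those with a summit found in all 3 other lists and in 29.2% of all windows, so that the Inv-only share stood between the others.

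Counting each summit once in place of each window, 11 of 210 Inv-only summits in promoters (5.24%, interval 2.95 to 9.13) had the motif in their window, against 329 of 2071 common ones (15.9%). The share by band rests on few windows below 3, where the Inv-only share was the higher one. Under 2 the motif was in 1 of 5 Inv-only windows and in 0 of 3 common ones, and from 2 to 3 in 2 of 19 (10.5%) and in 1 of 29 (3.45%). From a −log10 q of 3 to 5 the motif was in 2 of 112 Inv-only windows (1.79%) and in 17 of 211 common ones (8.06%), and from 5 to 10 in 5 of 92 (5.43%) and in 60 of 600 (10.0%). At 10 or more it was in 1 of 17 (5.88%) and in 287 of 1577 (18.2%). The summits particular to the Ins, Del8-10 and Inv:Del7-10 libraries had it in 4.02%, 5.13% and 3.85% of their promoter windows, all inside the interval for the Inv-only windows. A missing match says only that these letters are not in the window. These counts concern promoters alone, and the sequence under the other Inv-only summits was not analysed here.

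The windows under Inv-only summits were rich in G and C, with a median of 61.7% (quartiles 56 and 68), against 59.7% (54.7 and 64.7) for those with a common Inv summit and 52.7% (45.7 and 61.7) over all windows. The shares of windows with either motif were not compared at matched G and C content. Besides Gm46560 and Sin3b, the motif-bearing windows belonged to Zfyve16, Crkl, Npy4r, Dhx9, Tmf1, Gm35240, Slc7a1, Gm52095 and Plk2, named after their values were seen. Dhx9 encodes an RNA helicase, Crkl an adaptor protein of receptor signalling and Plk2 a polo-like kinase. Their −log10 q lay between 1.95 for Plk2 and 6.39 for Zfyve16, so none of them was among the strong members.

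**Figure D4:**
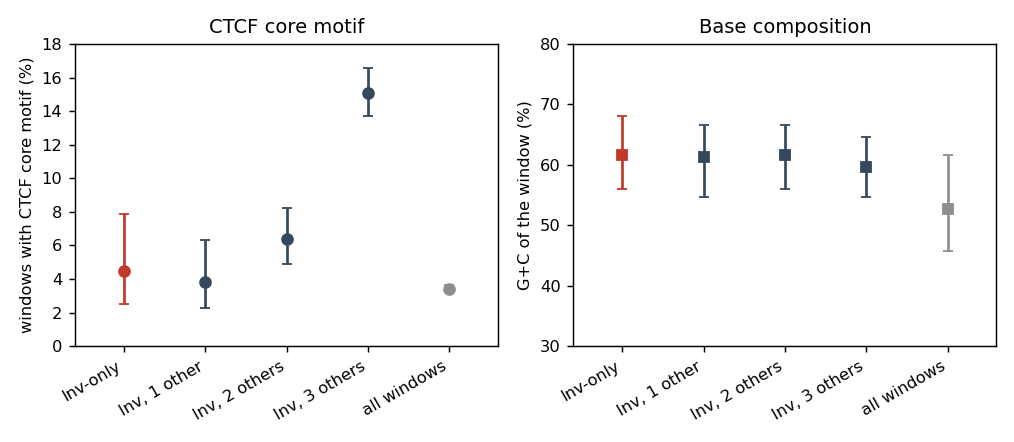
Share of RefSeq promoter windows with the CTCF core motif (left, percent, 95% Wilson intervals) and the G and C content of the windows (right, percent, median and quartiles), for windows holding Inv-only summits, Inv summits found in 1, 2 or 3 other lists, and all windows on the same chromosomes. The motif share is 4.49% under Inv-only summits, 15.1% under summits found in 3 other lists and 3.41% over all windows.

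The 10 strongest members show what lies at the top of the set. The first pair lay side by side before Crebzf, a bZIP transcriptional regulator, at chr7:90441598-90441850 and chr7:90441913-90442120. Their summits, 90441728 and 90442016, had −log10 q of 35.01 and 32.3 and pileups of 38 and 36 fragments over a background of 1.68. The nearest summits of the Ins, Del8-10 and Inv:Del7-10 lists were 15.3, 31.6 and 15.3 kb from the first. They stood at percentiles of 81.9 and 79.7 in the list, and the next member at 72.2.

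The third lay at chr7:76318405-76318668 within Agbl1, a carboxypeptidase gene, with a −log10 q of 25.2, a pileup of 20 and the highest fold of these, 15. Its nearest summits in the other lists were 30.8, 8.81 and 8.81 kb away. The fourth was the Dpf1 promoter summit at 29303826 on chromosome 7, in the first sequence printed above, where Dpf1 encodes a subunit of neuronal BAF chromatin remodelling complexes. It had a −log10 q of 25.2 and the largest pileup of the set, 45, but over a high background of 4.88, so its fold was 7.82. The other lists had their nearest summits at 2.36, 2.37 and 2.36 kb, almost the same distance in each.

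The fifth member, at 86195151 on chromosome 15, lay 8.89 kb from Cerk, the ceramide kinase gene, with a −log10 q of 21.1, and summits of the Ins and Inv:Del7-10 lists stood only 560 and 770 bp from it. Next came a summit on chromosome 18, 1.57 kb from the pseudogene Gm7378 (20.3), and one at 27176841 on chromosome 3, 6.16 kb from Nceh1, a cholesterol ester hydrolase gene (20.2). The last 3 had pileups of 14, 14 and 13. They lay at 10405479 on chromosome 6, 70.5 kb from the pseudogene Gm18421, at 27486013 on chromosome 9, 32.9 kb from the lncRNA gene Gm30791, and at 7076258 on chromosome 2 within Celf2, an RNA-binding protein gene. Their −log10 q were 16.2, 16.2 and 16.0. The Celf2 summit was the most isolated of the 10 from the Inv:Del7-10 list, whose nearest summit was 227 kb away.

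Among promoters, the Ptpn18 summit (a tyrosine phosphatase gene) had a −log10 q of 15.5 and lay about 3.30 kb from the nearest summit of each other list. That of Gm4631 had 14.6, with the other lists at 11.5, 11.6 and 8.92 kb, and 5 alternative start windows of that gene contained it. The C1ql4 summit, in a gene for a secreted C1q-like protein, had 13.3 in a peak of 470 bp, and every other list had a summit 262 to 269 bp away, just past the limit. The Proser1 summit had 12.8, and an Ins summit stood 499 bp from it. Of these 5, the Dpf1, Ptpn18 and Gm4631 summits had no other list's summit within 2 kb.

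The Inv-only summits were spread over the genome. They occurred in 1682 of the 2294 windows of 1 Mb that held a summit in any list (73.3%), with a mean of 1.75 per window, a variance 1.69 times the mean and a highest count of 16. There were 599 windows with 1 member, 467 with 2, 291 with 3, 170 with 4, and 155 with 5 or more, which held 937 members (23.3%). The number of windows with 5 or more depended on the lists compared, at 632 without the Inv:Del7-10 list and 290 without the Ins list, and matching within 100 bp gave 351. The 23 richest windows held 204 (5.07%). As a description across windows, which share library and gene density, the number of members went with the number of other Inv summits (Pearson r 0.53, Spearman rho 0.49 over 2294 windows). By chromosome the share of Inv summits that were Inv-only ran from 5.92% on chromosome 5 and 5.99% on chromosome 19 to 8.01% on chromosome 8.

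**Figure D5:**
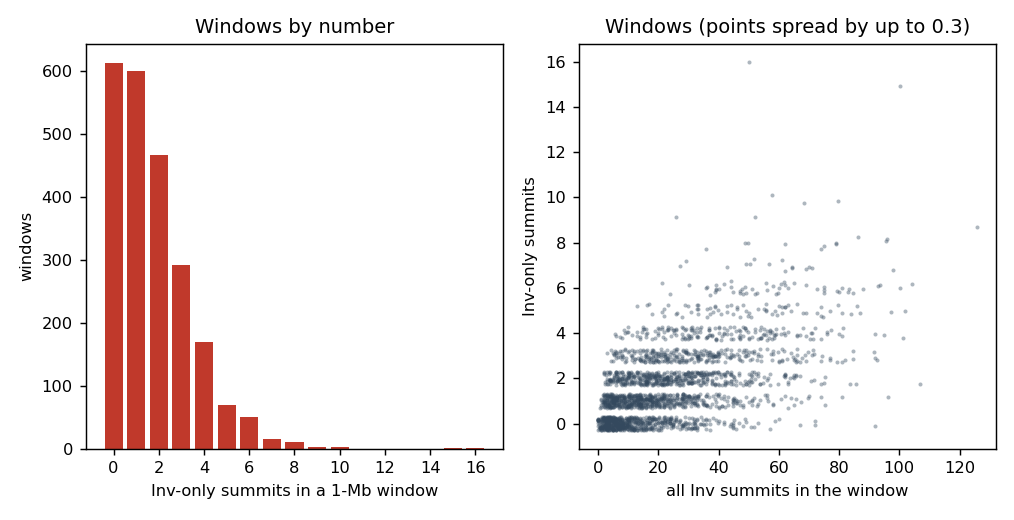
Left, number of 1-Mb windows by their number of Inv-only summits. Right, Inv-only summits against all Inv summits in each window, with points spread by up to 0.3 in both directions; 2 windows with 16 and 15 members stand above all others, which have 10 or fewer.

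The richest window was chromosome 2 from 175 to 176 Mb, where 16 of 50 Inv summits (32.0%) were Inv-only. The Ins, Del8-10 and Inv:Del7-10 lists had 37, 35 and 45 summits there, fewer than the Inv list although each of those lists is longer, and 2, 4 and 6 of their own. The window holds 14 protein-coding genes, among them Zfp965, Zfp966 and Zfp968 and relatives named only by Gm numbers, including Gm4631 and Gm4724. Of the 16 members 14 lay within a gene span and 5 within 1 kb of a gene start, with −log10 q of 2.17 to 14.6. The span of Gm4724, 286 kb long, held 5 members, among them the one in the Zfp965 promoter window. The genes of this cluster resemble each other, so reads there could be placed on several copies, and the part of this in the result was not tested.

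The next window, chromosome 2 from 168 to 169 Mb, held 15 members among 100 Inv summits, in a stretch with Sall4, a pluripotency transcription factor, Nfatc2, Adnp and Zfp64. Here the other lists were also dense, with 130, 93 and 129 summits in the Ins, Del8-10 and Inv:Del7-10 libraries, and 19, 3 and 20 of their own. Only 4 of the 15 lay within a gene span, and the median distance to a summit of another list was 723 bp, against 8095 bp in the richest window. Windows with 10 members were chromosome 1 from 171 to 172 Mb, with the Slamf and Fcgr immune receptor genes (80 Inv summits), chromosome 8 from 119 to 120 Mb, with Cdh13 and Usp10 (68), and chromosome 5 from 24 to 25 Mb, with Kcnh2, Nos3 and Prkag2 (58).

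Over all genes, 9.68% of 43955 had an Inv-only summit within 10 kb, and 14.3% of 19056 protein-coding genes did. Long genes had one more often: 40.3% of protein-coding genes of at least 200 kb (362 of 898), against 7.89% of those under 10 kb. Relative to the Inv summits near them the share differed less. It was 7.15% (501 of 7007, interval 6.57 to 7.78) for the long genes and 5.96% (402 of 6748, interval 5.42 to 6.55) for the short ones. Between them it was 6.12% for genes of 10 to 50 kb and 6.39% for those of 50 to 200 kb, so it rose with length. The gene with most members was Lrp1b, a very large endocytic receptor gene of 2058 kb on chromosome 2, with 6 of its 13 Inv summits Inv-only, the strongest at a −log10 q of 10.3. Of 34 very long genes listed, 23 had a member within 10 kb (41 of 472 Inv summits, 8.69%, interval 6.47 to 11.6), led after Lrp1b by Lsamp and Macrod2 at 9.37.

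Genes of stem cell identity had a few weak members. Of 25 pluripotency genes, 8 (32%) had an Inv-only summit within 10 kb, against 14.3% of all protein-coding genes and 9.68% of all genes. Of the 93 Inv summits near them 10 (10.8%, interval 5.95 to 18.7) were Inv-only, an interval that holds the 7.15% of all Inv summits. The strongest were in Sall4 (−log10 q 6.26), 3.94 kb from Esrrb (5.89), an orphan nuclear receptor gene, and in Tet2 (4.92), which encodes a DNA demethylase. The Sall4 member had summits of the Inv:Del7-10 and Ins lists at 666 and 846 bp. The Tet2 member had summits of the Ins and Del8-10 lists at 433 and 754 bp. For the Esrrb member the nearest summit of another list was at 9260 bp. Of 29 genes of the HoxA, HoxC and HoxD clusters 4 (13.8%) had a member within 10 kb. These were a single summit 4.09 kb from Hoxa13 (5.73) and one in Hoxc4 (2.17) that also counts for Hoxc5 and Hoxc6. Of 20 genes of tail elongation, Dll1, a Notch ligand gene (3.29), and Fgf8, a growth factor gene (2.17), had one (10%).

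The other lists stood in the same low range. Genes with a member within 10 kb were 8.70% of the imprinted, 20% of the CTCF and cohesin and 6.67% of the germ layer genes. They were 15.4% of the fibroblast and 17.4% of the housekeeping genes. Over all protein-coding genes the share was 14.3%, and over all genes 9.68%. One summit shared by Airn and Igf2r (3.48) was the only member near 23 imprinted genes, which had 52 Inv summits. Of 15 genes of CTCF and cohesin, Pds5a and Stag1 had a member at 4.90 and Maz one at 2.49. Neurog2, a neural bHLH gene, had one (4.61) among 15 germ layer genes. Among 13 fibroblast genes, Fn1, the fibronectin gene, had 2 members (the stronger at 6.25) and Pdgfrb had 1 (2.93). Every other list had a summit 321 to 338 bp from the Pdgfrb member. Of 23 housekeeping genes 4 had one, the highest at Hspa8 (5.31), Rps18 (3.31) and Rplp0 (2.75). The nearest summits of another list lay 1155, 308 and 564 bp from these members.

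Gene families gave larger counts. Of the olfactory receptor genes, 2.15% (22 of 1021) had a member within 10 kb, against 9.68% of all genes. They had few Inv summits of any kind, and 21 of those 177 (11.9%, interval 7.89 to 17.5) were Inv-only. The strongest stood 3.64 kb from Olfr1368 and 4.74 kb from Olfr263 (11.5), and the next near Olfr149 (6.39). At vomeronasal receptor genes 11 of 62 Inv summits (17.7%, interval 10.2 to 29.0) were Inv-only, which is above the 7.15% over all Inv summits. The strongest were 7.60 kb from Vmn2r63 (12.7), near Vmn1r238 (9.37), and one near Vmn1r143 (6.39).

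At protocadherin genes, which encode cell-surface proteins of neurons, 5 of 135 Inv summits (3.70%, interval 1.59 to 8.38) were Inv-only. The strongest were in Pcdh9 (6.39), 5.07 kb from Pcdh1 (6.15), and within Pcdhb7, 6.48 kb from Pcdhb6 (3.60). At genes with a Zfp symbol, most of which encode zinc-finger proteins, 64 of 807 (7.93%) were, with Zfp532, Zfp870 and Zfp9 all at 9.37. Cytosolic ribosomal protein genes had 15 of 182 (8.24%), led by Rps26 (7.91), Rpl10a (6.43) and Rpl9 (6.25). Over all protein-coding genes together it was 6.44% (2451 of 38055). The intervals for the olfactory and vomeronasal receptor genes lay above the 7.15% of all Inv summits, which include those far from genes. Those of all protein-coding genes (6.20 to 6.69) and of all genes (6.43 to 6.89) lay below it. So did those of protein-coding genes under 10 kb (5.42 to 6.55), of 10 to 50 kb (5.76 to 6.50) and of 50 to 200 kb (5.99 to 6.81). The interval for protein-coding genes of at least 200 kb (6.57 to 7.78) held it. Those of the other gene families and of the named lists also held it. These intervals treat summits as independent, cover counting error only and make no allowance for the number of lists compared. They describe the lists and do not test whether the receptor genes differ from the rest. For the receptor genes, the share was not compared at matched strength or with the other libraries. Both receptor families are made of similar copies, in which the placing of reads was not tested.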

How the data were processed

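CTCF CUT&RUN peak lists of 4 mouse embryonic stem cell lines were analysed, 1 library per genotype. The authors deposited narrowPeak files, in which each peak has a fold (the ratio of its pileup to the local background), a −log10 p-value, a −log10 q-value and a score that is 10 times the −log10 q cut to a whole number. Per the submitters' processing notes, the tools included MACS2 2.2.7.1, bedtools 2.30.0, Bowtie2 2.4.5, cutadapt 4.1 and Picard, with mm10. Their settings, and whether a control was used, were not given in the sources used here. Read depth is unknown. The lowest −log10 q in the 4 lists was 1.30 to 1.31.

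Summits were taken as the deposited start plus the summit offset, counted from 1, and matched within 250 bp. Chromosome 11 carries the edits and was left out, as were X and Y. Genes and promoters came from RefSeq on GRCm38.p6. The promoter table holds no chromosome 18, so shares near gene starts exclude it. Shares have 95% Wilson intervals, which treat summits as independent and cover counting error only, because each genotype has 1 library. Fragments without molecular identifiers are not independent molecules. Pileups were solved from the deposited fold and −log10 p-value, with a tolerance of 0.001, for all members; 18 had more than 1 solution. The pileups, the G and C content, the motif counts per summit and the setting without members within 1 kb of a found summit were added after the data were seen. Matching, placing and pileup recovery were tested on simulated data. Python 3.11.15, NumPy 2.4.6, pandas 2.3.3, SciPy 1.17.1 and Matplotlib 3.10.9 were used.

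The members, gene lists and rules were chosen with earlier results of these data known. The items named are the 10 strongest Inv-only summits, the 5 windows of 1 Mb with most, the 5 strongest in promoter windows, up to 3 genes per list and the 3 summits nearest to the limit on each side. Gene lists were matched by symbol and genes without a match were left out. Lists of gene families were made by symbol prefix, without the ribosomal S6 kinases; a histone list matched no gene and is not used.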

Additional observations from a re-analysis of the deposited data

How the results depend on the processing

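No paired analysis was possible because each genotype has 1 library. Under other settings, 60 values stayed within the error of the main value (counts within 1.5 times) and 42 moved. Matching within 100 bp gave 9.97% Inv-only, a median width of 227 bp and 351 windows with 5 or more members; within 500 bp, 6.02% and 97 windows. Any overlap of intervals gave 6.45% and 212 bp. Inv summits with a −log10 q of at least 5 gave 1675 members (3.57%), 9.74% near a gene start, 50.7% in gene spans and a width of 235 bp. Their fold was 5.88, with 12 windows. Their percentile of 10.7 was ranked among the kept summits only. In the full list, members with a −log10 q from 5 to 10 had a median percentile of 25.5. The 20000 strongest peaks of each list gave 1576 members (9.17%), of which only 4 were among the 4023, with 13.3% near a gene start, a width of 314 bp, a percentile of 18.4, a fold of 14.5, 26 windows and the motif in 14.9% of promoter windows. One summit per interval gave a width of 212 bp. Adding chromosomes X, Y and 11 and the second copy of chromosome 11 gave 7.56% and a percentile of 14.6. The 51.9% in gene spans under this setting left out both copies of chromosome 11. Leaving out members within 1 kb of a found summit, a setting chosen after seeing the data, gave 6.27%. Starts of protein-coding genes only gave 9.57%, and starts within 250 bp 6.71%. The shorter motif AGGNGGC was in 40.8% of windows under members, in 49.9% under summits found in all other lists and in 29.2% of all windows. Where a setting changed the Inv list, percentiles were ranked anew among the summits it kept and are not on the scale of the main value. The cause of the other shifts was not tested.

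Leaving out 1 other list at a time gave 4286 to 7614 members (7.62% to 13.5%), 9.78% to 14.2% near a gene start, widths of 218 to 229 bp, percentiles of 14.5 to 16.4, folds of 5.04 to 5.23 and 184 to 632 windows. Without the Inv:Del7-10 list the values were 7614 members and 632 windows, and without the Ins list 290 windows. Depth is unknown, so a summit missing from a list was not called there, which is not an absence of CTCF.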

Other observations

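Chromosomes outside the rule gave other shares of unmatched summits. On chromosome X, 245 of 1879 Inv summits were Inv-only (13.0%), against 13.7%, 9.31% and 17.01% unmatched in the Ins, Del8-10 and Inv:Del7-10 lists. On chromosome Y it was 30 of 81 (37.0%), against 30%, 61.3% and 10.3%. On chromosome 11 it was 356 of 4084 (8.72%), against 13.7%, 7.14% and 13.5%. On its second copy with the HoxB deletion it was 362 of 4076 (8.88%), against 13.4%, 8.10% and 14.4%. The placing of reads between these copies was not tested, so their shares are not separate results.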
